A study of Mus musculus with 2 samples.

Results

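Interferon-stimulated genes are the genes that cells switch on when an interferon reaches them. Type I interferons bind the receptor pair Ifnar1 and Ifnar2, the kinases Jak1 and Tyk2 are activated, and a complex that contains Stat2 and Irf9 then binds the interferon-stimulated response element in the promoters of its targets. Fibroblasts are a classical responder cell, and the genes are also expressed at a resting level without infection. Here 40 such genes were followed in RNA from mouse embryonic fibroblasts. Members were taken by name from a given list, drawn up with earlier results of these data known, as the rows of the deposited table that carry a listed name, alone or joined with another gene. A row was present for 39 of the 40, out of 25430 distinct names in the table. The table writes names in capitals (ISG15, IFIT1, STAT2, USP18), and mouse symbols are used here. No member had a repeated row.

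The study compared primary fibroblasts labelled Sptbn1 knockout (homozygous, per the series' title) with fibroblasts labelled wild type, both grown from embryos at embryonic day 13.5 of heterozygous matings and kept in serum-containing medium with no interferon or virus treatment named in the labels. Sptbn1 encodes beta-2 spectrin, a scaffold protein of the membrane skeleton. There was 1 library per genotype, so a spread between cultures is missing, no test was made, and every statement compares 2 libraries. Values are FPKM (a fragment count corrected for transcript length and library size) as the authors deposited them, and the depth is unknown. The column taken as wild type carries a wild-type name and also a -/- mark in its header, so each direction rests on reading it by its name. Sptbn1 itself was listed at 36.6 FPKM in knockout and 69.6 FPKM in wild-type cells. The library labelled knockout thus kept 52.5% of the wild-type level of the targeted transcript, and the values do not show which exons it came from. The fibroblast label was met by the markers: the collagen gene Col1a1 stood at 939 FPKM in knockout and 957 FPKM in wild-type cells, while all but 1 of 6 endothelial markers and all but 1 of 4 epithelial markers had a mean below 1 FPKM. Macrophage markers were also present, with a summed level of 872 FPKM in knockout and 1379.7 FPKM in wild-type cells, most of it from the lysozyme row.

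Differences are given as log2((knockout FPKM + 1)/(wild-type FPKM + 1)), a scale that compresses the differences of low genes. Members with a mean of 1 FPKM or more over both libraries count as measured, which held for 37 members and for 11070 names of the whole table. On the deposited scale the members were modestly lower in the knockout library, and on a common FPKM sum they were not. Their median log2 ratio was -0.18, against -0.05 for all measured names, and 27 of 37 lay below 0. Of all measured names 63.1% lay below 0, so this count of members, at 73.0%, was not far above the background. Larger differences were counted from 0.32 on this log2 scale. Lower by 0.32 or more were 7 members (18.9%), against 6.52% of all measured names: Usp18, Irf7, Oasl2, Dtx3l, Ifi47, Xaf1 and Gbp3. Higher by 0.32 or more was 1 member, Ifitm1 (2.70%), against 3.85% of all measured names. With 1 FPKM added to both values, no member reached 1.5-fold in either direction, which 1.23% of all measured names did downward and 1.04% upward. Without that addition, Ifitm1, a low gene, stood at 153% of its wild-type value. Just outside the limit of 0.32 lay Isg15 at -0.28 and Mx2 at 0.28. Of the 37 members, 13 lay within 0.1 of 0.

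**Figure D1:**
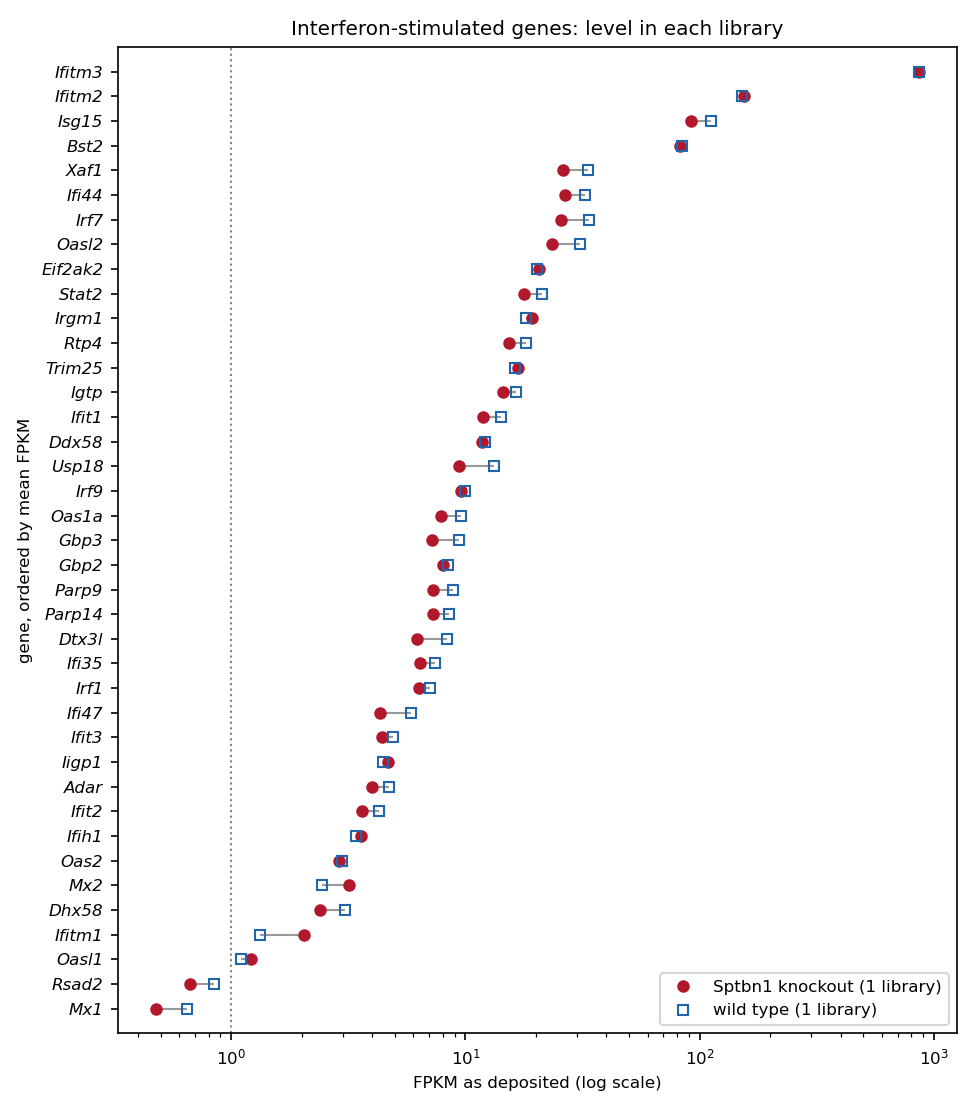
Level of the 39 members with a row in each library, in FPKM on a log axis, with a filled circle for the knockout library, an open square for the wild-type library and a dotted line at 1 FPKM. The genes span from Mx1 at 0.478 FPKM in knockout and 0.646 FPKM in wild-type cells up to Ifitm3 at 863 and 861 FPKM. The distance between the symbols of a gene is small beside this whole span, though not beside the distance between many neighbouring genes.

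The zero point of these ratios depends on the scaling. All FPKM added up to 279927 for the knockout and 386567 for the wild type, a log2 shift of 0.47, and on a common sum the members' median was 0.23 and that of all measured names 0.34. Without small RNA genes, 18S ribosomal RNA and outlying rows in the sum, a setting added once the data had been examined, this shift became 0.02, the members' median -0.17 and that of all measured names -0.04. Centred on the median name, the members' median was -0.13 and 24 of 37 lay below 0, with 3 lower by 0.32 or more and 2 higher by 0.32 or more. Of all measured names, centred in the same way, 4.33% were lower and 5.19% higher by that much. Under each of these scalings the members' median lay below that of all names, by 0.11 to 0.13. Directions below are on the deposited scale.

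**Figure D2:**
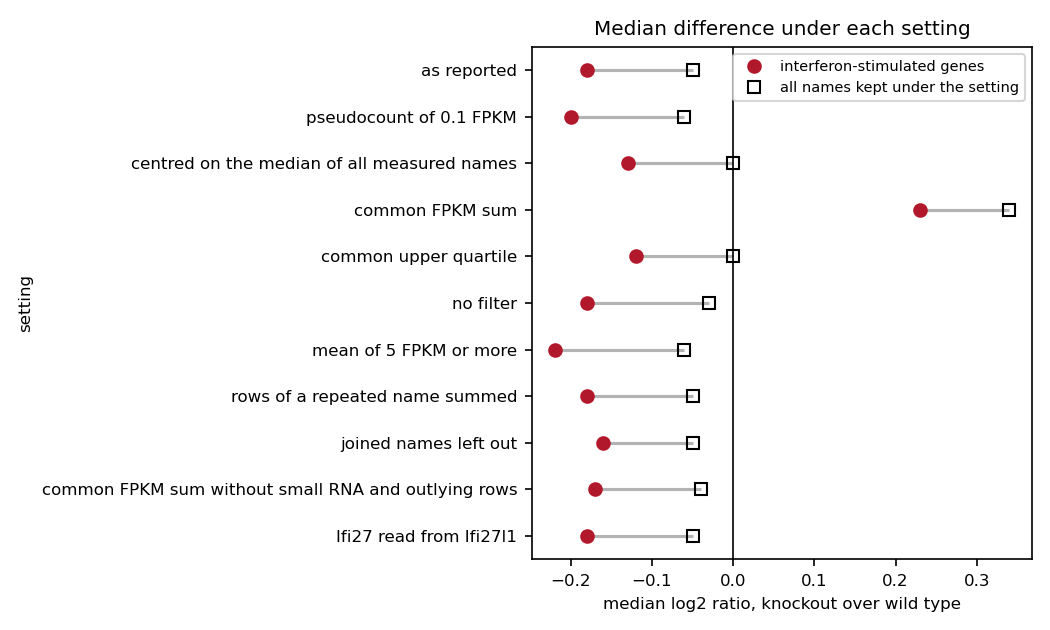
Median log2 ratio of knockout over wild type, on the x axis, for the members (filled circles) and for all names kept (open squares) under each setting on the y axis. Only the common FPKM sum put the members' median above 0, at 0.23, and the members' median lay to the left of that of all names in every setting drawn.

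The complex with Stat2 and Irf9 binds a short promoter element, and stretches of a few promoters that hold its core letters are printed below. RefSeq promoter windows on GRCm38.p6, from 250 bases before to 50 bases after a gene's start, matched 30 of the 40 members by symbol, all but Usp18, Oas2, Dhx58, Mx1, Mx2, Rtp4, Ifi27, Parp9, Parp14 and Iigp1. The core of the interferon-stimulated response element was searched as GAAANNGAA on both strands, so that TTCNNTTTC counts as a match. At least 1 window held it in 19 of the 30 members (63.3%), against 9.76% of all 27025 genes with a window. Of the 33 matches in members, 26 began before the gene's start, the farthest at position -249. The shorter core TTCNNNGAA, which reads the same on both strands and belongs to the interferon gamma-activated element, was in 9 of the 30 members (30.0%) and in 9.55% of all genes. Both were in 6 members (Oas1a, Eif2ak2, Adar, Bst2, Ifitm3 and Igtp) with overlapping letters in 2 of them (Bst2 and Ifitm3). A match is a stretch of letters and not a measured binding site. The stretches below follow the gene's own strand, 5′ to 3′, with GAAANNGAA matches in capitals. The first 4 are from genes that were lower in the knockout library, and Bst2 and Irgm1 were near-equal.
Isg15: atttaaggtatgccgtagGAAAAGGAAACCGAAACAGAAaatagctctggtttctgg
Ifit1: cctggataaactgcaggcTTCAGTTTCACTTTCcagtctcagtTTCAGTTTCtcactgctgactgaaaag
Ifit3: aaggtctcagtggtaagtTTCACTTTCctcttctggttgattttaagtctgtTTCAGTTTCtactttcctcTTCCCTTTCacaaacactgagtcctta
Gbp3: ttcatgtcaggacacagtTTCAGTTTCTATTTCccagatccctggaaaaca
Bst2: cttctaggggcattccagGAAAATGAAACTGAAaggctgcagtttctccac
Irgm1: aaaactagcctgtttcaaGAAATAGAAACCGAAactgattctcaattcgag

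In GRCm38.p6 these lie at chr4:156200858-156200914 on the minus strand for Isg15, chr19:34640762-34640831 on the plus strand for Ifit1 and chr19:34583356-34583453 on the plus strand for Ifit3. The others lie at chr3:142559982-142560032 on the plus strand for Gbp3, chr8:71537570-71537620 on the minus strand for Bst2 and chr11:48871418-48871468 on the minus strand for Irgm1. Isg15, Ifit1 and Ifit3 hold 3 matches each, and Gbp3, Bst2 and Irgm1 hold 2 each. The matches of Isg15, Gbp3, Bst2 and Irgm1 overlap in a tandem run, while those of Ifit3 stand apart. Among measured members with a window, those with the core had the higher median. Members without a window, among them Usp18 with the lowest ratio of all, are left out of this split. The 18 measured members with it had a median log2 ratio of -0.09, with 12 below 0 and 1 (Gbp3) lower by 0.32 or more. The 11 measured members whose windows lacked it had a median of -0.19, with 9 below 0 and 5 (Irf7, Oasl2, Xaf1, Dtx3l and Ifi47) lower by 0.32 or more. No difference between these subsets was tested.

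The transcription factors of the pathway were all below 0. Irf7, which amplifies interferon production once it is induced, was listed at 25.5 FPKM in knockout and 33.6 FPKM in wild-type cells, a log2 ratio of -0.39. Stat2, which carries the activation domain of the complex, stood at 17.8 FPKM in knockout and 21.3 FPKM in wild-type cells (-0.24). Irf1, a factor induced mainly by interferon gamma, was at 6.35 FPKM in knockout and 7.05 FPKM in wild-type cells (-0.13). Irf9, the DNA-binding part of the complex, was near-equal at 9.60 FPKM in knockout and 10.0 FPKM in wild-type cells (-0.05). The 4 factors thus differed among themselves, and Irf9 sat at the median of all measured names.

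Isg15 and Usp18 form the modifier arm. Isg15 encodes a ubiquitin-like protein that is attached to other proteins, and it ranked behind only Ifitm3 and Ifitm2 in abundance among members, at 91.9 FPKM in knockout and 112 FPKM in wild-type cells (-0.28). Usp18 removes Isg15 from its targets and also restrains signalling at Ifnar2. It had the lowest log2 ratio of the 37 measured members, -0.45, at 9.35 FPKM in knockout and 13.2 FPKM in wild-type cells, so that 71.1% of the wild-type value was left.

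**Figure D3:**
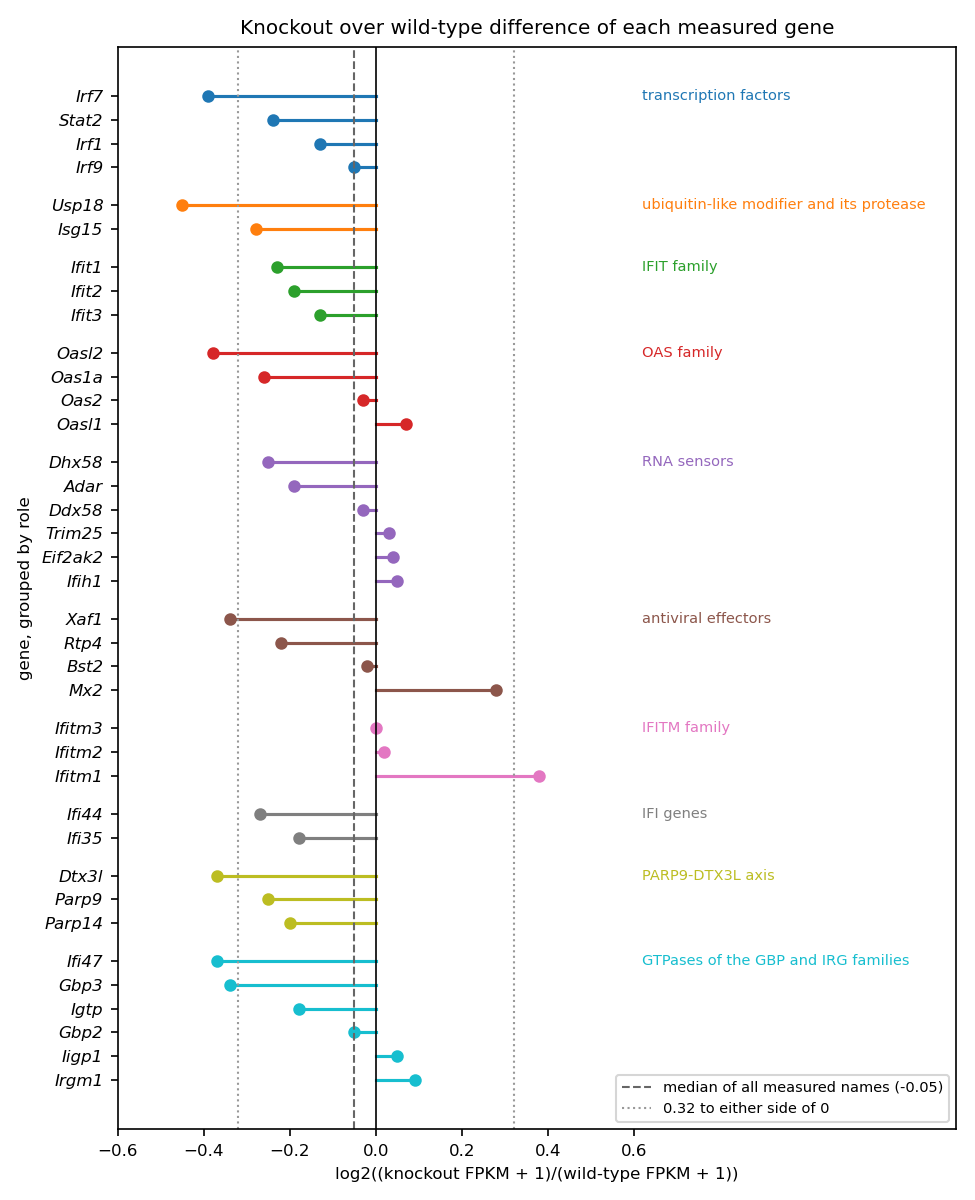
Log2 ratio of knockout over wild type for the 37 measured members, grouped by role, with 1 point per gene, a dashed line at the median of all measured names (-0.05) and dotted lines at 0.32 to either side of 0. On the deposited scale drawn here, points to the left of 0 were lower in the knockout library. Transcription factors, IFIT genes and the Parp9, Parp14 and Dtx3l group lie wholly to the left, and the IFITM genes lie at or to the right of 0.

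The IFIT genes, whose proteins bind foreign RNA, were slightly lower in each case. Ifit1 was at 11.9 FPKM in knockout and 14.2 FPKM in wild-type cells (-0.23). Ifit2 stood at 3.63 FPKM in knockout and 4.28 FPKM in wild-type cells (-0.19). Ifit3, which stabilises Ifit1 binding in human cells, was at 4.41 FPKM in knockout and 4.93 FPKM in wild-type cells (-0.13). The genes lie within a few genes of each other on chromosome 19 and have close relatives, between which Cufflinks may have divided shared fragments.

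The oligoadenylate synthetases, which activate RNase L when they meet double-stranded RNA, and their OAS-like relatives were uneven. Oasl2 was listed at 23.5 FPKM in knockout and 30.8 FPKM in wild-type cells (-0.38). Its direct neighbour on chromosome 5, Oasl1, whose protein restrains Irf7 translation, was low and slightly on the other side, at 1.21 FPKM in knockout and 1.10 FPKM in wild-type cells (0.07). Oas1a, in a row joined with Oas3, stood at 7.84 FPKM in knockout and 9.61 FPKM in wild-type cells (-0.26). Oas2 was near-equal, at 2.88 FPKM in knockout and 2.96 FPKM in wild-type cells (-0.03).

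Genes that sense or edit RNA in the cytosol were split, with 3 of 6 below 0 and a summed level in the knockout library at 99.0% of that in the wild-type library. The helicase gene Ddx58 (RIG-I) was at 11.8 FPKM in knockout and 12.1 FPKM in wild-type cells (-0.03). The related helicase gene Ifih1 (MDA5) was at 3.57 FPKM in knockout and 3.42 FPKM in wild-type cells (0.05). Eif2ak2, which encodes the kinase PKR that halts translation, was at 20.7 FPKM in knockout and 20.2 FPKM in wild-type cells (0.04). These 3 main sensors were therefore near-equal between the libraries. Trim25, a ubiquitin ligase that acts on RIG-I, was at 16.7 FPKM in knockout and 16.3 FPKM in wild-type cells (0.03). Dhx58 (LGP2), another helicase of the family, stood lower at 2.40 FPKM in knockout and 3.05 FPKM in wild-type cells (-0.25). Adar, whose product converts adenosine to inosine in double-stranded RNA, was at 4.01 FPKM in knockout and 4.73 FPKM in wild-type cells (-0.19).

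Among effectors, Xaf1, a proapoptotic zinc finger gene, was at 26.1 FPKM in knockout and 33.4 FPKM in wild-type cells (-0.34). Rtp4, which binds viral RNA, was at 15.3 FPKM in knockout and 18.1 FPKM in wild-type cells (-0.22). Bst2 (tetherin), which holds budding virus at the cell surface, was abundant and near-equal at 82.4 FPKM in knockout and 83.7 FPKM in wild-type cells (-0.02). The dynamin-like Mx genes were low and opposite in sign. Mx2 stood at 3.17 FPKM in knockout and 2.43 FPKM in wild-type cells (0.28). Mx1 was at 0.478 FPKM in knockout and 0.646 FPKM in wild-type cells, below the measured limit. Rsad2 (viperin) was also below it, at 0.668 FPKM in knockout and 0.846 FPKM in wild-type cells.

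The IFITM genes, whose membrane proteins block viral entry, were the only role group of more than 1 measured member with none below 0. Ifitm3 was by far the most abundant member, at 863 FPKM in knockout and 861 FPKM in wild-type cells (0.00). Ifitm2 was second, at 154 FPKM in knockout and 152 FPKM in wild-type cells (0.02). Ifitm1 was low, at 2.04 FPKM in knockout and 1.33 FPKM in wild-type cells (0.38), and was the highest ratio of any measured member. The 3 genes neighbour each other on chromosome 7 and are similar in sequence, so fragments may have been divided between them. Because of Ifitm3 the members' summed level was 95.6% of wild type in the knockout library, and without Ifitm3 it was 90.2%.

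Parp9, Parp14 and Dtx3l lie next to each other on chromosome 16, and all were lower. Dtx3l, a ubiquitin ligase that works as a pair with Parp9, was at 6.23 FPKM in knockout and 8.35 FPKM in wild-type cells (-0.37). Parp9 was at 7.29 FPKM in knockout and 8.83 FPKM in wild-type cells (-0.25). Parp14, a mono-ADP-ribosyltransferase, was at 7.30 FPKM in knockout and 8.51 FPKM in wild-type cells (-0.20). Ifi44 stood at 26.6 FPKM in knockout and 32.3 FPKM in wild-type cells (-0.27). Ifi35 was at 6.39 FPKM in knockout and 7.38 FPKM in wild-type cells (-0.18).

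The GTPases that interferon gamma induces against intracellular parasites went both ways. Ifi47, in a row joined with Olfr56, was at 4.33 FPKM in knockout and 5.88 FPKM in wild-type cells (-0.37). Gbp3 was at 7.18 FPKM in knockout and 9.37 FPKM in wild-type cells (-0.34), while Gbp2, which lies close to it on chromosome 3, was at 8.06 FPKM in knockout and 8.41 FPKM in wild-type cells (-0.05). Igtp, joined with Irgm2, was at 14.4 FPKM in knockout and 16.5 FPKM in wild-type cells (-0.18). Irgm1, a regulator of the other IRG proteins, was at 19.3 FPKM in knockout and 18.2 FPKM in wild-type cells (0.09). Iigp1, which coats the vacuoles of parasites, was at 4.67 FPKM in knockout and 4.46 FPKM in wild-type cells (0.05). Thus the IRG genes with rows of their own were slightly higher and those in joined rows lower. Without the 3 joined rows the members' median was -0.16.

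Split by abundance, a step added after the data were seen, the members gave these counts. Of 23 members with a mean from 5 to 50 FPKM, 20 were below 0 (87.0%) and 7 lower by 0.32 or more (30.4%), with a median of -0.23. Among all 5369 names at that level, 65.5% were below 0, 5.57% were lower by 0.32 or more and the median was -0.06. The 10 measured members below 5 FPKM had a median of 0.01, with 5 below 0, and the 4 above 50 FPKM one of -0.01, with 2 below 0. Of all names from 1 to 5 FPKM, 60.7% were below 0, with a median of -0.04. Of all names from 50 to 1000 FPKM, 60.9% were below 0, with a median of -0.05. In both of these ranges the members were few, and their counts below 0 lay near the share of all names. Single members outside the middle range were as low as many inside it, such as Isg15 (-0.28), Dhx58 (-0.25), Ifit2 (-0.19) and Adar (-0.19). No difference between the ranges was tested.

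Other genes of the pathway were read from lists of names. No interferon gene was measured: 19 of 23 listed names had a row, 14 of them, Ifnb1 and Ifng included, were listed at 0 in both libraries, and the highest was 0.110 FPKM in knockout and 0.0263 FPKM in wild-type cells. For comparison, 63.1% of all measured names lay below 0 and 6.52% were lower by 0.32 or more. Receptors and JAK-STAT genes had 15 measured members, of which 10 lay below 0 and none differed by 0.32 or more, with a median of -0.13. Their count below 0 was near that background. The receptor chain gene Ifnar1 was at 6.36 FPKM in knockout and 6.20 FPKM in wild-type cells (0.03). Ptpn2, a phosphatase that acts on Jak and Stat proteins, was at 9.14 FPKM in knockout and 7.76 FPKM in wild-type cells (0.21). Genes of nucleic acid sensing had 17 of 18 measured members below 0 with a median of -0.08, and 2 lower by 0.32 or more. These were the endosomal RNA receptor gene Tlr7, at 1.45 FPKM in knockout and 2.35 FPKM in wild-type cells (-0.45), and the DNA exonuclease gene Trex1, at 5.57 FPKM in knockout and 7.50 FPKM in wild-type cells (-0.37).

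A further list of interferon-stimulated genes, without rows that hold a member, had 39 of 51 measured genes below 0 and a median of -0.10. Of all measured names 63.1% lay below 0. Lower by 0.32 or more were 8 and higher by 0.32 or more 3, against 6.52% and 3.85% of all measured names. These genes spread wider than the 37 members, from -1.10 to 1.71. The chemokine genes that recruit T cells through Cxcr3 were lowest: Cxcl11 was at 3.48 FPKM in knockout and 6.84 FPKM in wild-type cells (-0.81), and Cxcl9, named after its value was seen, at 13.4 FPKM in knockout and 20.3 FPKM in wild-type cells (-0.56). Cxcl10 completed the trio at -1.10. On the other side stood Gbp1, listed at 2.40 FPKM in knockout and 0.0385 FPKM in wild-type cells (1.71). It belongs to a family of related genes. Whether fragments were divided among them was not tested, and its value is uncertain. Ifi27l2a was at 68.8 FPKM in knockout and 36.5 FPKM in wild-type cells (0.90), 188% of the wild-type value.

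The member without a row was Ifi27. RefSeq lists Ifi27l1 as an older name of Ifi27, and Ifi27 as an older name of Ifi27l2a, so the name alone does not settle which row is meant, and neither was counted. Ifi27l1 was at 21.8 FPKM in knockout and 19.9 FPKM in wild-type cells (0.12). Ifi27l2b was at 1.18 FPKM in knockout and 0.367 FPKM in wild-type cells (0.67), a mean below the measured limit, and was named after its value was seen. These 3 rows of the chromosome 12 family stood above 0 on the deposited scale, of which only Ifi27l1 and Ifi27l2a were measured.

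**Figure D4:**
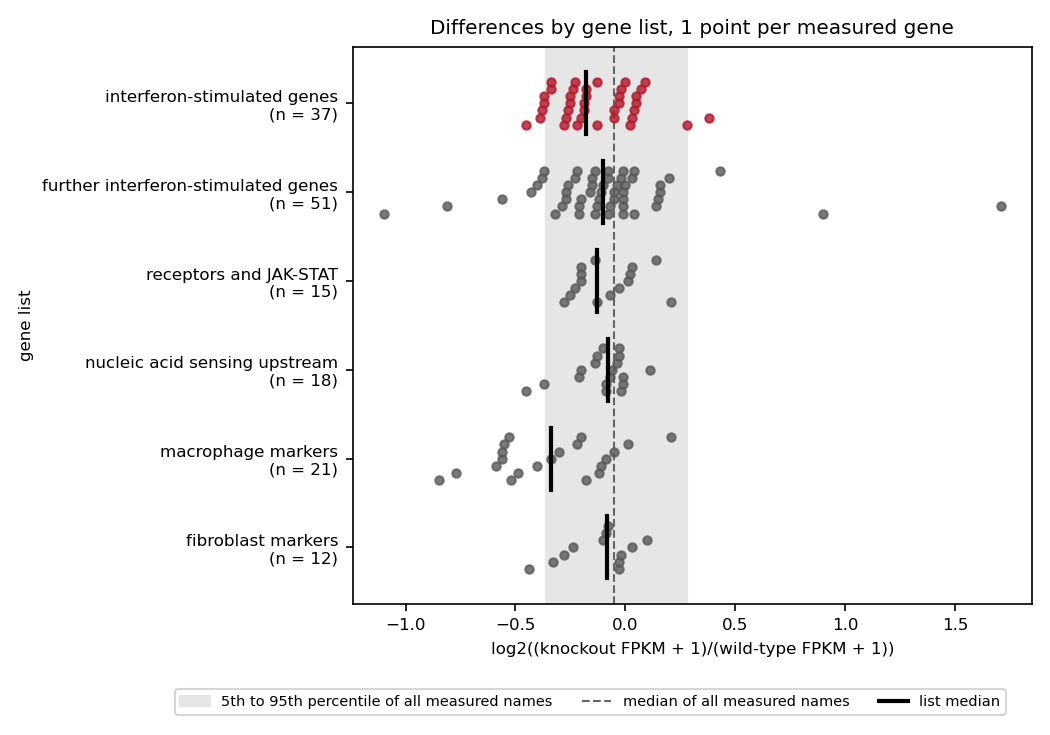
Log2 ratio of knockout over wild type, on the x axis, with 1 point per measured gene for each list on the y axis, black bars at list medians, a dashed line at the median of all measured names and shading from their 5th to their 95th percentile (-0.36 to 0.28). On this deposited scale the macrophage markers, with a median of -0.34, lie farther to the left than the interferon-stimulated genes (-0.18) and the fibroblast markers (-0.09).

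Macrophages, which embryo fibroblast cultures can hold, also express many interferon-stimulated genes, and most of their markers were lower in the knockout library. Of 23 listed markers 21 had a row, and all 21 were measured, so none with a row was at 0. Below 0 lay 19 of 21, and 11 were lower by 0.32 or more, with a median of -0.34. The 2 above 0, named after their values were seen, were Ptprc (0.01) and Aif1 (0.21). Of all measured names 63.1% lay below 0 and 6.52% were lower by that much. Their summed level was 872 FPKM in knockout and 1379.7 FPKM in wild-type cells, and without the lysozyme row, which made up most of it, 299 FPKM in knockout and 400.4 FPKM in wild-type cells. On this scale both sets were lower, and the part of these markers in the lower interferon-stimulated genes was not tested. In such bulk RNA fewer cells of a type and less RNA per cell cannot be told apart. Fibroblast markers had a median of -0.09, with 10 of 12 below 0. The largest differences among them were those of Twist2, a mesenchymal transcription factor gene (-0.44), and Dcn, which encodes the proteoglycan decorin (-0.33).

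By the authors' deposited table, 2 of the 37 measured members (5.41%) had p below 0.05, against 5.60% of all measured names. The authors' deposited table gave Irf7 a p-value of 0.0217 and Oasl2 one of 0.0486. The authors' deposited table gave Usp18 0.0514, Dtx3l 0.0573 and Gbp3 0.0805, and Ifitm1, the highest ratio, 0.290. These p-values were made from 1 library per genotype and hold no spread between cultures. They also did not always follow the size of the difference. Col1a1, at a log2 ratio of -0.03, fell below 0.05, and Xaf1, at -0.34, did not.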

How the data were processed

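RNA-seq of 1 Sptbn1 knockout and 1 wild-type library of embryonic fibroblasts was used. Per the series' design text and the submitters' processing notes, the authors used FastQC and Trimmomatic, aligned with TopHat2 2.0.10 to NCBI mouse build 37.2, quantified with Cufflinks and compared with Cuffdiff2. Per the file headers, the authors deposited FPKM for each library and an unadjusted p-value per row. The deposited fold column was not used. Library depth is unknown and no interval or detection limit was computed.

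Where a name was repeated, its most abundant row was used. Log2 ratios with a pseudocount of 1 FPKM were computed with Python 3.11.15 and pandas 2.3.3, and the code was tested on simulated data. Log2 differences of 0.32 and folds of 1.5 were counted over names with a mean of 1 FPKM or more. With 1 library per genotype no test was made. Members and lists were chosen with earlier results of these data known. Every measured member may be named, and of each other list up to 4 genes with the largest differences, apart from those said to be named after their values were seen and the genes Col1a1, Ifnar1, Ifnb1, Ifng and Ifi27l1, which were picked by role or name. Names, gene order and promoter sequences came from RefSeq on GRCm38.p6, another build than the alignment. Alternatives were another pseudocount, 4 scalings, other filters and other ways of matching names. The value of 1 gene that the naming rule takes is not reported here.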

Additional observations from a re-analysis of the deposited data

How the results depend on the processing

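The members' median log2 ratio of -0.18 stayed between -0.12 and -0.22 under each alternative except the common FPKM sum, where it was 0.23 with 1 member below 0, none (0) lower by 0.32 or more and 14 higher by 0.32 or more. On that sum the log2 ratios of 6 members that had been lower by 0.32 or more changed sign, to 0.06 for Irf7, 0.07 for Oasl2, 0.11 for Xaf1, 0.04 for Dtx3l, 0.07 for Gbp3 and 0.02 for Ifi47, while Usp18 was at -0.02. The sum includes small RNA rows and single outlying rows, the latter picked by their difference between the libraries. Without both kinds of row the median was -0.17. Counts near the limit of 0.32 moved with the zero point. Lower by 0.32 or more were 3 members after centring on the median name and 2 on a common upper quartile, against 7 as reported. Higher by 0.32 or more were 2 members after centring, 2 on a common upper quartile and 2 with a pseudocount of 0.1 FPKM, against 1 as reported, and 0 with a mean of 5 FPKM or more, which leaves Ifitm1 out. Summed repeated rows, left-out joined rows, no filter and Ifi27l1 read as Ifi27 changed no count of calls by over 1.5 times. Ifi27l2a read as Ifi27 was not run. Its log2 ratio of 0.90 is above that of every measured member, so the choice of row matters for the count of higher members. No paired analysis was possible because each genotype has 1 library, and for the same reason no library could be left out. Depth is unknown, so members near 1 FPKM carry the least certain ratios.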

Other observations

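Further families of interferon-inducible genes, named here after their values were seen, held lower, near-equal and slightly higher genes in the knockout library on the deposited scale. Of the Schlafen genes, growth regulators of immune cells and fibroblasts, Slfn2 was at 11.0 FPKM in knockout and 12.0 FPKM in wild-type cells (log2 ratio -0.11), and Slfn5 at 9.46 FPKM in knockout and 9.16 FPKM in wild-type cells (0.04). Slfn4, known from myeloid cells, was the lowest of them at 0.807 FPKM in knockout and 1.43 FPKM in wild-type cells (-0.43). Of the p200 genes, whose products bind DNA, Ifi204 was at 12.3 FPKM in knockout and 15.6 FPKM in wild-type cells (-0.32), and Mnda at 3.14 FPKM in knockout and 4.45 FPKM in wild-type cells (-0.40), while Ifi202b was at 14.6 FPKM in knockout and 15.1 FPKM in wild-type cells (-0.04). The immunoproteasome subunit genes were split, with Psmb8 at 22.3 FPKM in knockout and 20.0 FPKM in wild-type cells (0.15), Psmb9 at 11.1 FPKM in knockout and 13.5 FPKM in wild-type cells (-0.26), and Psmb10 at 5.66 FPKM in knockout and 7.68 FPKM in wild-type cells (-0.38). Slfn4, Ifi204, Mnda and Psmb10 are among the 8 genes of the further list that were lower by 0.32 or more.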
